A study of Homo sapiens with 6 samples.

Results

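The MYC, MAX and MXD network was followed in the lung cancer line PC9/GR by the 10 genes MYC, MYCN, MAX, MXD1, MXD3, MXD4, MXI1, MNT, MLX and MLXIP. They were taken by symbol from a table of 54261 symbols, all 10 were found there, and 8 carried enough reads to be tested. A first group of 3 samples carried a control small interfering RNA (si-NC, here the control) and a second group of 3 carried one against MYLK-AS1 (si-MYLK-AS1, here the knockdown). MYLK-AS1 is a long non-coding RNA antisense to the myosin light chain kinase gene MYLK, and the series title ties it to glutamine use and to resistance against EGFR inhibitors. All 6 samples are of a single line, both groups carry an siRNA, and no untreated cells are analysed here. The labels give neither dose, time of harvest nor the number of siRNAs, and they do not state whether repeats are separate cultures. If the repeats are not separate cultures, p-values may capture technical spread alone.

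MYC is a basic helix-loop-helix leucine zipper transcription factor that binds DNA only as a dimer with MAX, mostly at the E-box CACGTG, and raises genes of ribosome assembly, nucleotide synthesis and growth. MXD1, MXI1, MXD3, MXD4 and MNT compete for MAX and recruit SIN3 and histone deacetylases to the same sites, where they repress. MLX is a MAX-like partner of MLXIP (also called MondoA) and MLXIPL (ChREBP), which sense sugar phosphates, and it also pairs with MXD1, MXD4 and MNT. MYC is an oncogene in lung cancer, as is MYCN in its neuroendocrine forms.

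Promoter sequences of 9 of the 10 members were matched by symbol in RefSeq (GRCh38.p14), in 12 windows of 300 bases since MXI1 and MAX have several. The member without a match was MYC, so its promoter was not searched. The E-box CACGTG, a palindrome, lay in 3 of these windows, those of MXD4, MNT and MLX, against 7.26% of all 35116 windows. The word TTGGCGC, read on either strand as one form of the E2F site, lay in the MYCN window only, as did TTTGAA, a form of the cell cycle homology region. A second E2F form, TTCCCGC, lay in none of the 12. Their shares of all windows were 3.04%, 15.2% and 6.55%. None of these 4 words lay in the window of MXD3, the member with the greatest change. The 250 bases before the start are shown for the 3 E-box promoters and for MXD3, with the E-box in capitals. They lie at chr4:2262110-2262359 (minus strand) for MXD4, chr17:2401061-2401310 (minus) for MNT, chr17:42566850-42567099 (plus) for MLX and chr5:177312753-177313002 (minus) for MXD3.
MXD4: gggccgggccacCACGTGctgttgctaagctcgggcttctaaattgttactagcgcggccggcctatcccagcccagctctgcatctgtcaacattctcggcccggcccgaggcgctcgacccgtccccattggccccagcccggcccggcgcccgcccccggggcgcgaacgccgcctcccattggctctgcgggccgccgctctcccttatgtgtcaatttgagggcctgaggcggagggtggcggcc
MNT: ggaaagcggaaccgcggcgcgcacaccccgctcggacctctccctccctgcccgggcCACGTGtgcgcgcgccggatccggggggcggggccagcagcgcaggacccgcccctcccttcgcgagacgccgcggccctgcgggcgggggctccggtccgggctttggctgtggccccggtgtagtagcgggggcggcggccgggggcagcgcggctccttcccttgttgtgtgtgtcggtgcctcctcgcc
MLX: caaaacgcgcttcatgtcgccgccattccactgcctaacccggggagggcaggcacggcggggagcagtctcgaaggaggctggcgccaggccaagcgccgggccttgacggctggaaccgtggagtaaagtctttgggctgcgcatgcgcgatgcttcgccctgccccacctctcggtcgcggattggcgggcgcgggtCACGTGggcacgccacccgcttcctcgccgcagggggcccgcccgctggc
MXD3: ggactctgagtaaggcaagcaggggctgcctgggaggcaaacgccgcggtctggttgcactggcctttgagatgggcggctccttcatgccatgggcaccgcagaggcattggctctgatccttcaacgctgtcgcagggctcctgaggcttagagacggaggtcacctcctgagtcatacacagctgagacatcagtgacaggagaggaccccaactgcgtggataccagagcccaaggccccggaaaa
The E-box starts 238 bases before the annotated start in MXD4, 193 in MNT and 50 in MLX. Of these 3 genes MXD4 rose and the others did not pass the test, and a match describes the letters, not a bound site.

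The 6 libraries held 7551303 to 11055408 reads. Levels are CPM, counts scaled to the library size after TMM scaling. Values of single libraries follow replicates 1 to 3, a value after ± is the SD over 3 libraries, and calls are those of edgeR's quasi-likelihood test at a Benjamini-Hochberg adjusted p under 0.05. The targeted MYLK-AS1 had 16 to 20 reads per control library and 0 to 5 per knockdown library (log2 fold change -2.43, SE 0.60, adjusted p = 0.00326). Of 15391 genes tested, 42.0% were called, 21.3% as higher and 20.7% as lower, and the median log2 fold change was -0.00050. The cell type label was checked with 8 epithelial markers. KRT7, KRT8 and KRT18 had mean levels of 2475 to 4255 CPM in each group, while EPCAM lay between 0.524 and 1.67 CPM in single libraries, NKX2-1 had 23 reads in all and CDH3 was listed at 0. Of the 6 tested, 5 were lower and 1 (KRT19) higher, and the summed level of all 8 was 11844 to 13867 CPM in the control and 7621 to 8225 CPM in the knockdown. Of 9 leukocyte, endothelial and fibroblast markers, 3 were listed at 0 (PTPRC, CD3E and COL1A2) and the summed level was 190 to 268 CPM in the control and 287 to 331 CPM in the knockdown, mostly CD68. Of the 3 tested, CD68 rose, and so did the fibroblast gene LUM, from 2, 7 and 6 reads to 28, 25 and 38 (log2 fold change 2.75, SE 0.46, adjusted p = 0.000128), while COL1A1 did not pass. What part this has in the results below was not tested.

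Among the 8 tested members, 4 rose (MYC, MXD1, MXD4 and MLXIP), 1 fell (MXD3) and 3 did not pass (MXI1, MNT and MLX). Of all genes tested, 21.3% were called higher and 20.7% lower. The levels of the 2 groups did not overlap for the same 5 members, where 52.2% of all genes tested did not overlap. A two-sided exact permutation test of a single gene cannot go below p = 0.1 with 3 against 3 samples, so the calls rest on the fit over all genes.

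**Figure D1:**
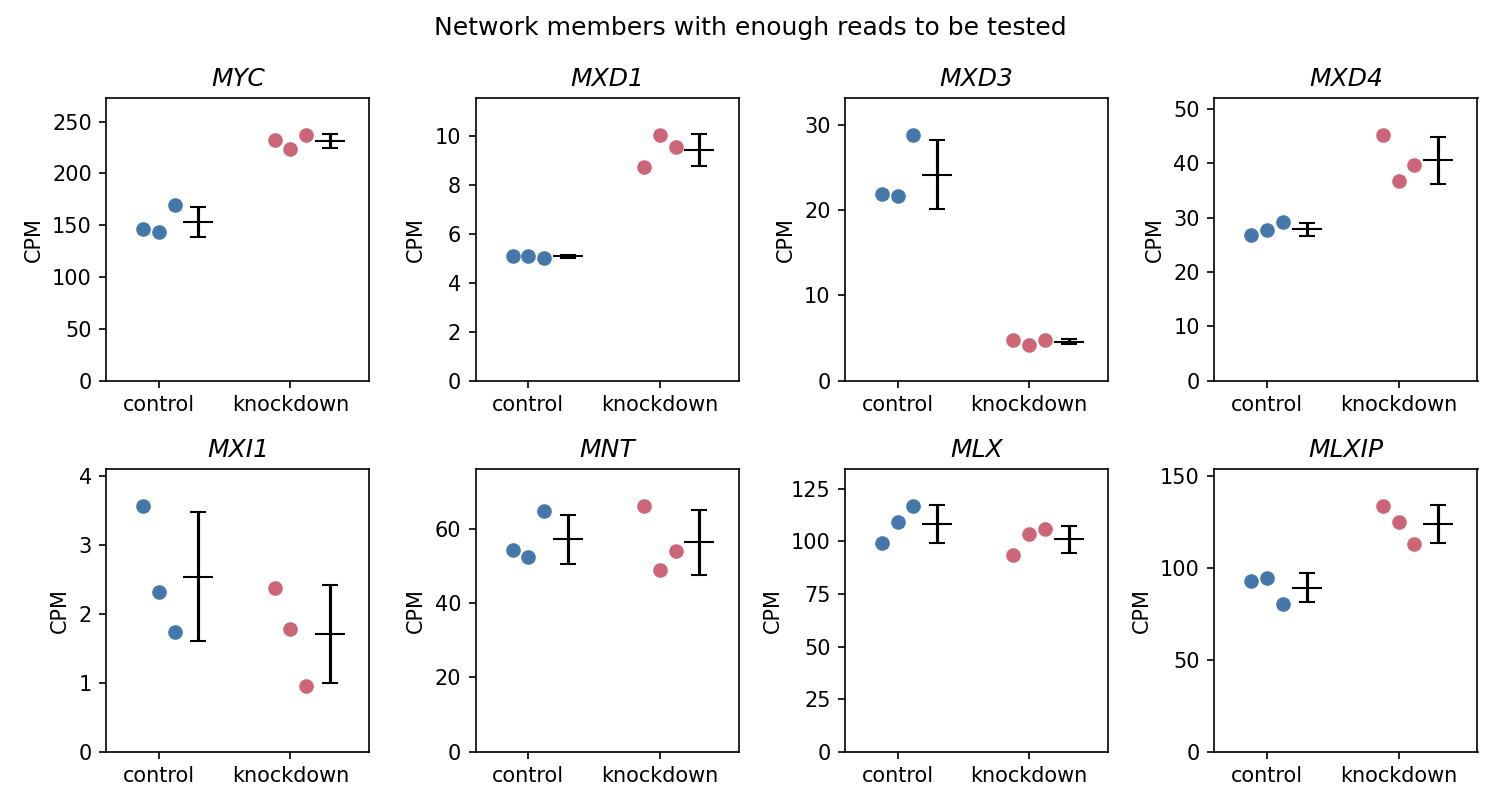
Level of each of the 8 tested members (vertical axis, CPM, from 0; the scale differs by panel) in the 3 control (blue) and 3 knockdown (red) libraries. Points are libraries in replicate order and black marks the mean with its SD; MXD3 sits at 21.7 to 28.8 CPM in the control and 4.19 to 4.78 CPM in the knockdown.

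MYC had the highest CPM of the tested members and rose. It stood at 146, 143 and 170 CPM in the control libraries, against 232, 224 and 237 CPM in the knockdown. Every knockdown library lay above every control library, and the knockdown libraries were the more alike, with a coefficient of variation of 2.90% against 9.51%. The rise was 1.51-fold (log2 fold change 0.59, SE 0.09, adjusted p = 6.73e-05). No exon base of MYC (ENSG00000136997.17) is shared with another gene in GENCODE release 29.

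MYCN (ENSG00000134323.11, chr2:15940564-15947007, plus strand), the neural relative of MYC, was barely detected. It had 1 read in each control library and 0 in each knockdown library, under the floor of 3 counts, so no fold is given. The antisense gene MYCNOS, which shares 98 exon bases with it, had 1 read in 1 library.

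MAX, the partner that MYC and the MXD proteins need, was listed at 0 reads in all 6 libraries. A count of 3 as the floor corresponds to 0.274 to 0.410 CPM per library. The gene (ENSG00000125952.18) lies at chr14:65006174-65102695 on the minus strand. In the GENCODE exons used here, 4.15% of its exon bases are shared with another gene. The annotation behind the counts was not given in the sources used here. The part of overlap in the listed 0 was not tested. Around MAX on chromosome 14, genes chosen after their values were seen had reads. FNTB, whose body runs into that of MAX, had 134 to 233 reads, and RAB15 had 486 to 796 reads. Other genes that every cell uses, also chosen after their values were seen, were listed near 0. RUVBL1, which works in a complex with RUVBL2, had 1 to 15 reads against 471 to 831 for RUVBL2, and the ribosomal protein gene RPS29 had 0 to 2. The listed 0 of MAX is therefore given as a table value, and whether the transcript is lacking or was not counted was not tested.

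MXD3 changed most. Its level was 21.9, 21.7 and 28.8 CPM in the control, from 197, 225 and 315 reads, against 4.75, 4.19 and 4.78 CPM in the knockdown, from 52, 40 and 35 reads. The groups were far apart, every control library lying above every knockdown library, and control replicate 3 was the highest. The log2 fold change was -2.40 (SE 0.19, adjusted p = 2.84e-08), a level 5.28-fold lower, and only 100 of the 15391 genes tested had a lower log2 fold change. Loss of MXD3-expressing cells and less MXD3 RNA per cell cannot be told apart in bulk RNA.

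Of the exon bases of MXD3 (ENSG00000213347.10, chr5:177301461-177312757, minus strand of GRCh38 as for all gene positions here), 40.4% are shared with neighbours. RAB24, on the same strand, shares 926 bases, and PRELID1, on the opposite strand, shares 1158, and no source used here says whether the counting used strand. RAB24, a small GTPase gene, went from 31.7 ± 6.01 to 24.2 ± 2.83 CPM (3 libraries each; log2 change -0.38, SE 0.15, adjusted p = 0.0474). PRELID1, which codes for a mitochondrial lipid transfer protein, fell by 0.50 on the log2 scale (SE 0.10, adjusted p = 0.000847). Both changes were smaller in size than that of MXD3. They were named after their values were seen.

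The 3' UTR of MXD3 holds the word AGCTTA, which an earlier look at these same data singled out among lower genes, so its presence is no independent evidence. It lies in the longest annotated 3' UTR of 4 of the 10 members, against 27.8% of 9583 genes scanned and 24.6% of 1576 genes with a 3' UTR of similar length to that of MXD3 (1619 bases). Among genes scanned and called lower it lay in 34.2% of 2026. Genes entered the scan only at a mean level of 5 CPM or more, which MXI1 and MYCN among the 4 do not reach, so the member count and these shares follow different rules. The sites in tested members are shown with the word in capitals.
MXD3: ctcaccttgcAGCTTAgccaagatat
MXI1: atctttttaaAGCTTAtccataaaaa
MLXIP: gtcctgtgggAGCTTAgaaccctgaa
The fourth is in MYCN. Among these carriers MXD3 fell, MLXIP rose and MXI1 did not pass. The siRNA sequences are not used here, and the part of the word in these values was not tested.

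MXD1 (ENSG00000059728.10, chr2:69897688-69942945, plus strand), a repressor linked to differentiation, rose from a low level. It stood at 5.12, 5.11 and 5.03 CPM in the control libraries, against 8.77, 10.1 and 9.56 CPM in the knockdown. The control libraries, with 46 to 55 reads each, were nearly equal, and the groups did not overlap. The rise was 1.86-fold (log2 fold change 0.89, SE 0.20, adjusted p = 0.00154). Exons of MXD1 share 237 bases, 3.73% of the total, with the splicing factor gene SNRNP27 on the same strand, which rose as well (log2 fold change 0.78, SE 0.15, adjusted p = 0.000575).

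MXD4 (ENSG00000123933.16, chr4:2247432-2262294, minus strand), a repressor linked to cells leaving the cycle, rose too. It stood at 26.8, 27.7 and 29.1 CPM in the control libraries, against 45.2, 36.7 and 39.6 CPM in the knockdown. The highest control library lay below the lowest knockdown library. The rise was 1.45-fold (log2 fold change 0.54, SE 0.13, adjusted p = 0.00218).

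MXI1 (ENSG00000119950.20, chr10:110207605-110287365, plus strand), a further MAX-bound repressor, was the scarcest tested member, with 7 to 32 reads a library. Its levels were 3.56, 2.31 and 1.74 CPM in the control and 2.37, 1.78 and 0.956 CPM in the knockdown. The groups overlapped, and the coefficient of variation was 36.7% and 41.8%. At this depth no difference was detectable, with a log2 fold change of -0.51 (95% interval -1.32 to 0.30, adjusted p = 0.307).

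MNT (ENSG00000070444.14, chr17:2384060-2401118, minus strand), the most widely expressed MAX-bound repressor, did not pass. Its levels were 54.2, 52.3 and 64.7 CPM in the control libraries, against 66.0, 48.8 and 53.9 CPM in the knockdown, fully interleaved. The log2 fold change was -0.02 (adjusted p = 0.921) with a 95% interval of -0.29 to 0.25. An antisense gene, for which no level is given here, shares 12.2% of the exon bases of MNT.

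MLXIP (ENSG00000175727.13, chr12:122078722-122147347, plus strand), the glucose-sensing partner of MLX, rose. It stood at 92.9, 94.4 and 80.1 CPM in the control libraries, against 134, 125 and 113 CPM in the knockdown, with no overlap. The rise was 1.39-fold (log2 fold change 0.48, SE 0.10, adjusted p = 0.00114). MLX itself (ENSG00000108788.11, chr17:42567068-42573239, plus strand) was at 99.1, 109 and 117 CPM in the control and 93.8, 104 and 106 CPM in the knockdown. These ranges overlapped and its log2 fold change was -0.10 (95% interval -0.31 to 0.11, adjusted p = 0.436). Exons of MLX share 18.1% of their bases with PSMC3IP on the opposite strand (log2 fold change -0.40, adjusted p = 0.0627).

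**Figure D2:**
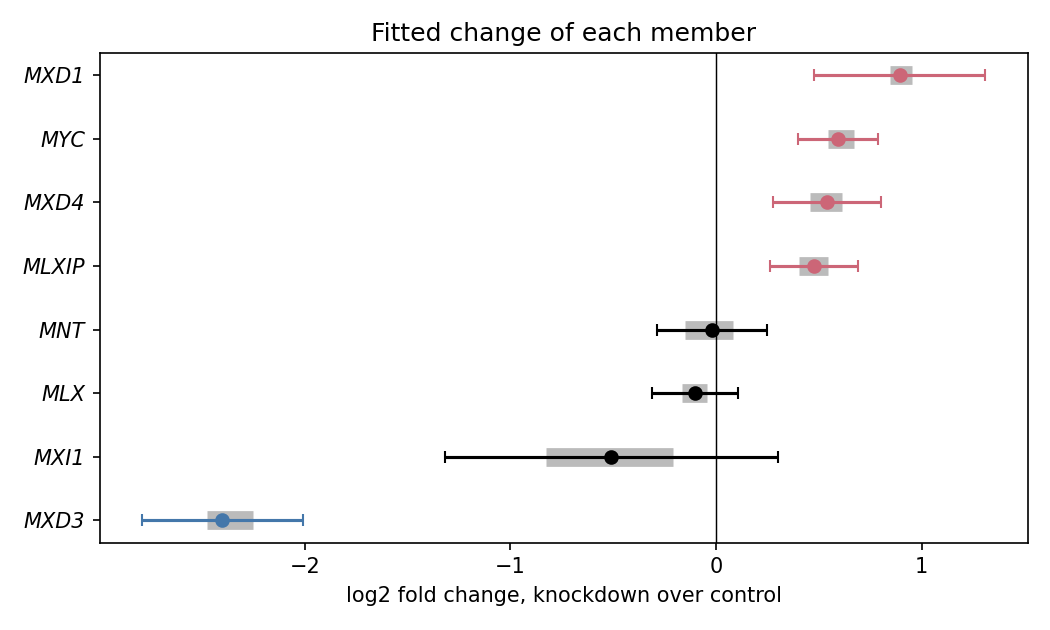
Fitted log2 fold change of the 8 tested members, knockdown over control (horizontal axis), with 95% intervals; red is called higher, blue lower, black neither. Grey bars span the values under all other settings tried; the intervals of MNT, MLX and MXI1 cross 0, while MXD3 lies at -2.40.

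Levels per kilobase of exon adjust for exon length, not for how reads were counted. Of exon bases, 40.4% in MXD3 and 18.1% in MLX are shared with other genes, and how these were counted is not known. This limit also holds for the shares and ratios below. Per kilobase of exon, MYC led the tested members with 51.1 ± 4.86 CPM per kb in the control (SD, n = 3) and MLX came next with 25.4 ± 2.08. MAX and MYCN, which were not tested, are left out of this order. MNT (6.54 ± 0.766), MLXIP (6.41 ± 0.566), MXD3 (4.68 ± 0.788) and MXD4 (3.95 ± 0.165) followed, and MXD1 (0.801 ± 0.00710) and MXI1 (0.551 ± 0.202) were lowest. MNT and MLXIP overlapped in their ranges, and the order of MNT, MLXIP and MXD3 turns on which exon length is used (11.4, 10.6 and 10.6 CPM per kb with the longest transcript). In the knockdown the order was MYC (77.0 ± 2.23), MLX (23.7 ± 1.51), MLXIP (8.90 ± 0.745), MNT (6.45 ± 1.01), MXD4 (5.74 ± 0.613), MXD1 (1.49 ± 0.103), MXD3 (0.887 ± 0.0639) and MXI1 (0.370 ± 0.155). MNT and MXD4 overlapped there. The place of MXD3 also turns on the length: in the knockdown it lay below MXD1 per exon base, but above it with the longest transcript (2.01 ± 0.145 against 1.69 ± 0.117).

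The makeup of the MXD family, as shares of the summed level per kilobase of MXD1, MXD3, MXD4 and MXI1 within a library, is a description of these values and independent of library scaling. MXD3 made up 44.2%, 44.6% and 51.4% in the control libraries, against 9.99%, 10.2% and 11.2% in the knockdown. MXD4 made up 37.9% to 41.5% in the control and 65.1% to 69.5% in the knockdown, and MXD1 went from 7.28% to 8.53% up to 15.0% to 19.8%. MXD3 was the larger of the pair in every control library, and MXD4 was the largest share in every knockdown library. The family sum was 9.98 ± 0.791 CPM per kb in the control and 8.48 ± 0.652 in the knockdown (SD, n = 3 each), and 18.8 ± 1.84 and 13.8 ± 1.13 with the longest transcript as length. With that length the MXD1 share was 4.87% ± 0.490 and 12.4% ± 1.82, against 8.06% ± 0.679 and 17.7% ± 2.49 with exon bases.

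**Figure D3:**
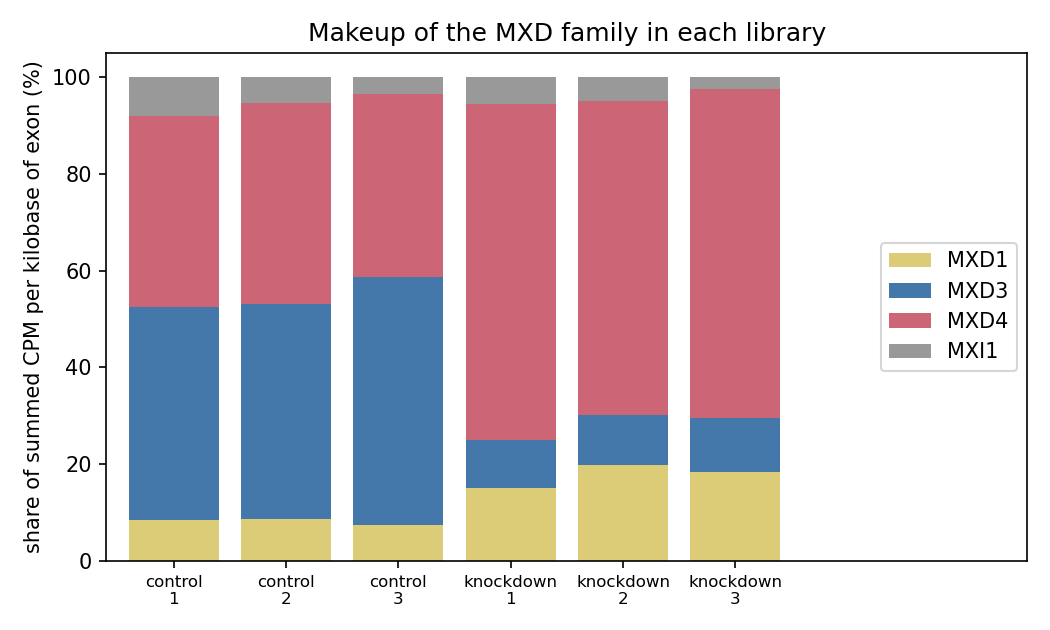
Share of each MXD gene in the summed CPM per kilobase of exon of the 4 MXD genes (vertical axis, percent) in each of the 6 libraries. The MXD3 segment (blue) is 44.2% to 51.4% in the control and 9.99% to 11.2% in the knockdown, and the MXD4 segment (red) widens.

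The level of MYC per kilobase relative to its competitors was also taken within each library. Against the sum of the MXD family and MNT it was 3.08, 3.10 and 3.09 in the control libraries, against 4.61, 5.50 and 5.48 in the knockdown. The control libraries were almost equal and all knockdown libraries were higher. Against MXD3 alone the ratio went from 11.0 ± 0.748 to 87.0 ± 4.14 (SD, n = 3 each), whereas against MXD4 it was 12.9 ± 0.777 and 13.5 ± 1.24 and overlapped. Against MXD1 it went the other way, from 63.8 ± 6.65 down to 51.9 ± 4.53, without overlap. Against MNT it went from 7.82 ± 0.167 to 12.1 ± 1.66, and against the scarce MXI1 from 103 ± 43.9 to 241 ± 123. With the longest transcript as length, MYC per MXD3 was 6.16 ± 0.420 and 48.8 ± 2.32. MLXIP per MLX went from 0.254 ± 0.0397 to 0.377 ± 0.0552.

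Over 9490 genes whose mean reached 10 CPM, those whose log2 CPM most resembled MYC over the 6 libraries included FTH1 (Pearson r 0.998) and MRPL17 (0.998). For MXD3 they were GOT1 (0.999), CDC25B (0.999) and KRT8P3 (0.999). The 6 points fall into the 2 groups of the design, so that any gene with a steady difference between them comes near 1, and 40 and 110 genes exceeded 0.99 against MYC and MXD3. KRT8P3 is a pseudogene and can take reads of KRT8.

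Of 17 tested partners of the network outside the 10 members, 4 were higher (23.5%) and 3 lower (17.6%), near the 21.3% and 20.7% of all genes, and the median log2 fold change was 0.06. MLXIPL, the other glucose-sensing partner of MLX, fell, from 20.6, 21.4 and 25.8 CPM in the control libraries to 11.4, 9.54 and 7.23 CPM in the knockdown (log2 fold change -1.25, SE 0.18, adjusted p = 2.68e-05). It went opposite to MLXIP. Among corepressors, HDAC2 rose from 62.1 ± 3.93 to 100.1 ± 11.5 CPM (3 libraries each; log2 change 0.69, SE 0.11), and NCOR1 fell (-0.55, SE 0.12). WDR5, a chromatin cofactor of MYC, rose (0.42, SE 0.10). MYCL, the third MYC gene, was at 3.65 to 4.72 CPM over the libraries (log2 fold change -0.03, adjusted p = 0.937), and MGA, a MAX-bound repressor, at 2.11 to 7.23 CPM (0.63, adjusted p = 0.109). MYCL and MGA were named after their values were seen.

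Of 18 tested genes that set MYC protein stability or MYC transcription, 5 were higher (27.8%) and 3 lower (16.7%), near the shares of all genes (21.3% and 20.7%), with a median of 0.02. AURKA, the mitotic kinase that shields MYCN protein from degradation, fell from 134 ± 6.66 to 47.2 ± 3.59 CPM (3 libraries each; log2 change -1.50, SE 0.10). CTNNB1, the beta-catenin gene (0.57, SE 0.09), the ubiquitin ligase gene TRIM32 (0.65, SE 0.13) and the deubiquitinase gene USP36 (0.41, SE 0.10) rose. Without control replicate 2, and also at a threshold of 0.01, the number lower was 1. FBXW7, the main ligase receptor for MYC, had a log2 fold change of 0.12 (adjusted p = 0.663) and is named after its value was seen. The ligase genes SKP2 (-0.94, SE 0.29, adjusted p = 0.0152) and HUWE1 (-0.31, SE 0.10, adjusted p = 0.0159) fell and were also named after their values were seen.

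Genes known to be activated by MYC were mostly higher or not called. Of 39 tested, 21 rose, 1 fell and 17 did not pass, beside 21.3% and 20.7% of all genes, and the median was 0.27. The transferrin receptor gene TFRC had the lowest p and rose from 163 ± 22.3 to 457 ± 35.4 CPM (3 libraries each; log2 change 1.48, SE 0.11), and the ribosome assembly genes RRP12 (1.12, SE 0.12) and NIP7 (0.89, SE 0.12) and the lactate dehydrogenase gene LDHA (0.97, SE 0.09) rose as well. The telomerase gene TERT fell, from 6.47 ± 0.613 to 2.36 ± 0.350 CPM (log2 fold change -1.43, SE 0.25, adjusted p = 0.000225), and is named after its value was seen. The number lower was 2 without control replicate 3, and also with upper quartile factors, no factors or the filter of 5 CPM. The E-box was present in 19 of 42 RefSeq windows of this list (45.2%), beside 7.26% of all windows. When only the 250 bases before the start were searched, the shares were 26.2% and 6.34%. The list was chosen with earlier results of these data known, so its direction is not independent evidence.

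Of 12 tested genes known to be repressed by MYC, 4 fell (33.3%) and 2 rose (16.7%), beside 20.7% and 21.3% of all genes, with a median of -0.23. The stress gene GADD45B (-1.24, SE 0.15), the transcription factor gene CEBPD (-1.32, SE 0.18) and the CDK inhibitor gene CDKN1C (-1.28, SE 0.28) were lower, and the ferritin heavy chain gene FTH1 was higher (0.77, SE 0.10). Leaving out control replicate 1, control replicate 2 or else knockdown replicate 1 left 1 of them higher, as did a threshold of 0.01. CDKN1A, the classic gene of this kind, had 491 ± 65.2 and 497 ± 10.5 CPM (3 libraries each; log2 change 0.02, adjusted p = 0.91) and is named after its value was seen.

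Targets of MLXIP and MLX did not move together. Of 5 tested, 3 rose and 1 fell, beside 21.3% and 20.7% of all genes. The arrestin-domain gene ARRDC3 rose from 43.0 ± 6.62 to 108 ± 1.42 CPM (3 libraries each; log2 change 1.33, SE 0.11) and KLF10 rose (0.50, SE 0.10). TXNIP, the best known target of MLXIP and an inhibitor of glucose uptake, fell. It was at 9.34, 9.35 and 8.70 CPM in the control libraries, against 5.30, 6.18 and 4.91 CPM in the knockdown (log2 fold change -0.73, SE 0.20, adjusted p = 0.00694). ARRDC4, its close relative, had 8 to 22 reads a library (log2 fold change 1.08, SE 0.40, adjusted p = 0.0358). That call was lost without filtering (adjusted p = 0.0606), with DESeq2 (0.0908), with the repeat number as a block (0.0525) and without any 1 of the libraries other than knockdown replicate 1 (up to 0.138).

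Genes of E2F and S phase, the phase in which MXD3 is known to be expressed, were mostly lower. Of 17 tested, 12 fell, beside 20.7% of all genes, and 1 rose, with a median of -0.55. The one that rose was the RB relative RBL1 (0.82, SE 0.17), named after its value was seen. The thymidine kinase gene TK1 fell from 166 ± 14.5 to 52.3 ± 5.29 CPM (3 libraries each; log2 change -1.67, SE 0.11), and CDT1 (-0.81, SE 0.14), PCNA (-0.59, SE 0.09) and MCM2 (-0.57, SE 0.10) fell less. The log2 fold change of MXD3, -2.40, was lower than that of each of the 17. The part of these genes in the fall of MXD3 was not tested.

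**Figure D4:**
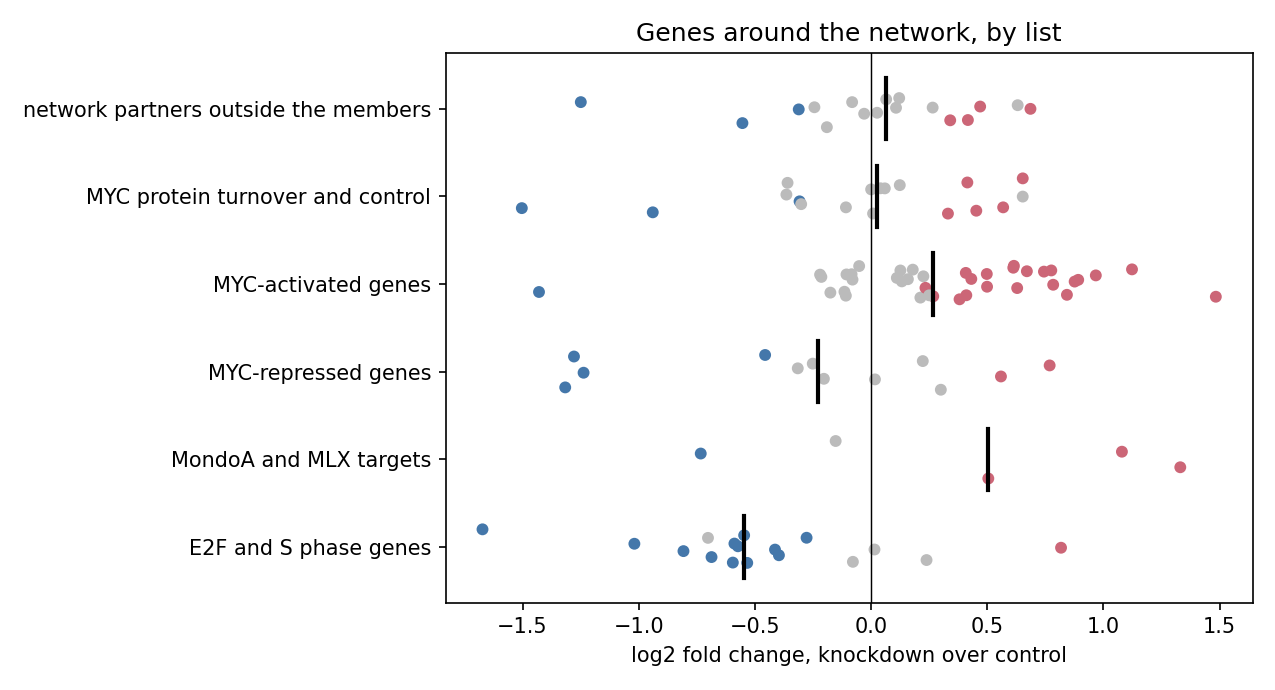
Fitted log2 fold change (horizontal axis, knockdown over control) of each tested gene in 6 lists around the network; red is called higher, blue lower, grey not called, and black bars mark list medians. Medians run from -0.55 for E2F and S phase genes to 0.50 for targets of MLXIP (MondoA) and MLX.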

How the data were processed

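Per the labels' protocols, RNA of 6 PC9/GR samples was taken with Trizol and sequenced from Ion Proton libraries. The authors deposited raw counts by gene symbol, and GRCh38 is the build per the submitters' processing notes. For the aligner, counter, annotation and use of strand, details were not given in the sources used here. Totals were 7551303 to 11055408 reads, and floors and single counts are given without an error estimate. Libraries within a group all differed beyond counting noise (chi-square per degree of freedom 2.38 to 9.98). In both groups the pairs with replicate 3 differed most.

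The fit used edgeR 4.0.16 (filterByExpr, TMM, robust quasi-likelihood F test, two-sided) on all 6 libraries, with Benjamini-Hochberg adjustment over 15391 genes. The SE is the size of the log2 fold change over the square root of F, and 95% intervals use it. Alternatives included DESeq2 1.42.0 and limma 3.58.1. Levels per kilobase used the union of GENCODE release 29 exons, and 3' UTRs were scanned where the gene's mean reached 5 CPM and the UTR 50 bases, and for members at any level. Of the listed symbols, 1 was matched through an older name. The test was checked on simulated counts.

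Members, lists and words were chosen with earlier results of these data known. Named were MYLK-AS1, all 10 members, up to 4 called genes of lowest p per list, and the 3 genes most like MYC and MXD3. Of these, 1 gene is not reported here. Others are said to be named after their values were seen, as are single genes beside a member.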

Additional observations from a re-analysis of the deposited data

How the results depend on the processing

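The counts of members called, 4 higher and 1 lower, were the same under every alternative run: other scaling (RLE, upper quartile, none), other filters (none, or 5 CPM in 3 libraries), DESeq2, limma-voom, each library left out, the replicate block and a threshold of 0.01. Over these the log2 fold change ran from 0.55 to 0.67 for MYC, 0.85 to 0.95 for MXD1, -2.47 to -2.25 for MXD3, 0.46 to 0.61 for MXD4 and 0.40 to 0.54 for MLXIP. MNT, near 0, changed sign when control replicate 3 (0.081), knockdown replicate 2 (0.079) or knockdown replicate 3 (0.018) was left out, within a range of -0.15 to 0.08. MXI1 gave no value under the stricter filter. With the longest transcript as length, the MXD3 share of the MXD family was 56.0% in the control and 14.6% in the knockdown, and MYC per summed MXD family and MNT was 2.14 and 3.93.

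The replicate block left 3321 genes higher and 3200 lower against 3274 and 3183. The log2 CPM of each library was also taken as its deviation from the mean of its own group. Between knockdown and control, these deviations correlated at -0.048 to 0.067 for same-numbered libraries and at -0.100 to 0.056 for differently numbered ones. With 3 libraries per group these values cannot show whether same-numbered libraries share a culture. MXI1 and MYCN are limited by depth.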
